A study of Mus musculus with 11 samples.

Results

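By their labels, the 2 anti-HA ChIP-Seq libraries described here cover the first hours of HA-MacroH2A2 incorporation in mouse embryonic stem (ES) cells. These are the library from cells without doxycycline (no Dox) and the library labelled 3 h of Dox. They are 2 of the 11 libraries of the series and were chosen by label. The series also holds anti-HA libraries labelled as the same ES cells at 6 and 12 h, as embryonic fibroblasts (MEFs) carrying the same construct and as HA-H3.3 ES cells. It holds anti-MacroH2A2 libraries from ES cells and MEFs as well. The question was where tagged MacroH2A2 lies above the library without Dox at the earliest time, by promoters, gene bodies, distal windows, 100 kb tiles and gene type.

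By the labels and the methods of the study, both libraries come from HA-MacroH2A2 inducible KH2 cells of strain 129 X C57bl/6. These cells carry the M2rtTA transactivator at the ROSA26 locus and the HA-tagged cDNA under a tetracycline operator with a minimal promoter, placed downstream of Col1a1 by FLP recombination. By label, control and induced cells are of the same line and differ only in Dox, which was given at 2 μg/mL for 3 h. The levels of a chromosome 14 segment and of chromosome Y, given below, differed between the libraries. The cells were depleted of feeder MEFs by pre-plating, and were cycling asynchronously. Each condition is 1 line and 1 library, so that no difference below was tested against a spread between replicates and no p-values are given.

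MacroH2A2 is a variant of histone H2A, encoded by H2afy2, that carries a large globular macro domain beyond its histone fold. It is known mostly from the inactive X chromosome and from silent genes of differentiated cells, where it has been described as a barrier to reprogramming. A pulse of tagged histone marks the nucleosomes assembled since the tag appeared, whether behind the replication fork or by exchange outside of S phase. In ChIP-Seq scaled to depth, each value is a share of the library, so that more reads in one place leave fewer for others.

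The library labelled 3 h holds 16020686 distinct 150 bp intervals on chromosomes 1 to 19 and the no Dox library 11381685. Each distinct interval was counted 1 time, at its midpoint, and levels are given per 1000000 such intervals (RPM). A ratio below is the library labelled 3 h over no Dox, and the interval in parentheses is an exact conditional binomial 95% interval that covers counting error only. The 252 tiles of 100 kb with the most no Dox reads, of 24731, were left out of the comparisons of compartments, promoters, bodies, distal windows and tiles. Ratios at 6 h, and in places at 12 h, are given beside those at 3 h, and since all are divided by the same no Dox library, they share its errors. For features chosen by their ratio in the library labelled 3 h, the ratios at 6 h are thus no separate check.

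The library labelled 3 h stood apart from the rest of the HA-Macro libraries in its reads on a segment of chromosome 14 and on chromosome Y. A segment of 2.8 Mb on chromosome 14, chosen after the data were seen and holding 25 protein-coding TSSs from Egr3 to Fndc3a, lay at 0.553 (0.538 to 0.568) of the level of its flanks in no Dox, 0.563 at 6 h, 0.558 at 12 h and 0.496 to 0.500 in the HA-Macro MEF libraries. In the library labelled 3 h it lay at 0.969 (0.951 to 0.987), near the 0.960 to 1.03 of the HA-H3.3 libraries and of those of anti-MacroH2A2. Chromosome Y held 0.1115% of the distinct intervals labelled 3 h, 0.0198% to 0.0244% of those of the other HA-Macro libraries, and 0.0423% to 0.102% of those of HA-H3.3 or anti-MacroH2A2. Of 11845 windows of 200 kb scanned for a lower level in every other HA-Macro library than in every library of HA-H3.3 or anti-MacroH2A2, 7 were found, and the bounds of the segment are the outer ends of these 7. With 1 library per condition, the Dox time and any other difference between the 2 libraries cannot be told apart, and "the library labelled 3 h" is used throughout.

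**Figure D1:**
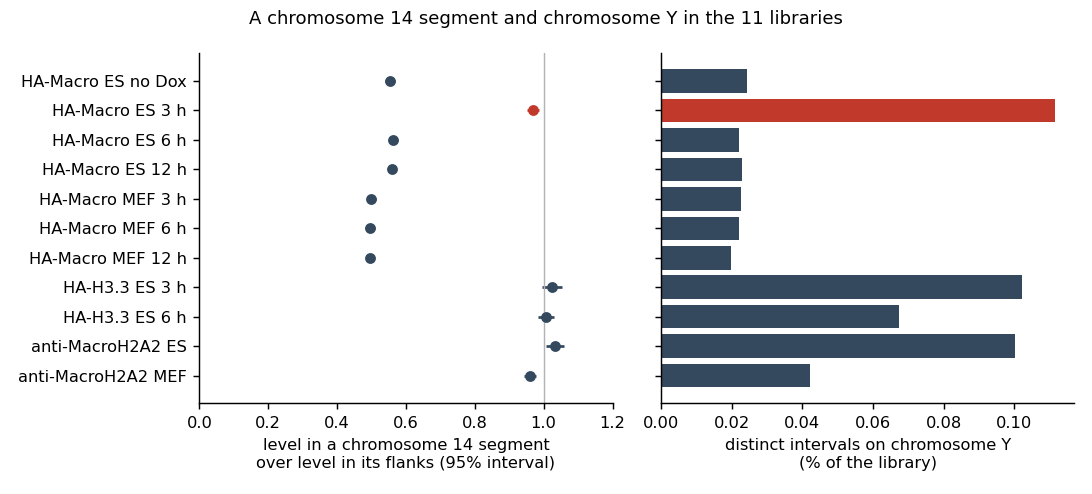
Level of the chromosome 14 segment over its flanks (left, with 95% counting intervals) and percent of distinct intervals on chromosome Y (right) in each of the 11 libraries, the library labelled 3 h in red. The segment lies at 0.553 without Dox, 0.563 at 6 h and 0.558 at 12 h, but at 0.969 in the library labelled 3 h, which also has the highest share of chromosome Y (0.1115%).

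The tagged gene itself could not be used to check the label. The exons of H2afy2 held 27 midpoints and its introns 388 in the library labelled 3 h, a density ratio of 1.62 (1.05 to 2.40). In no Dox they held 17 and 247, a ratio of 1.60 (0.92 to 2.62). Over 23730 tiles, log2 levels of the library labelled 3 h had a correlation of 0.849 with 6 h and 0.759 with 12 h. It was 0.742 with HA-H3.3 at 6 h, 0.666 with no Dox and 0.586 with HA-H3.3 at 3 h. Lower values were found with the anti-MacroH2A2 ES library (0.440), the HA-Macro MEF libraries (0.282 to 0.337) and the anti-MacroH2A2 MEF library (0.204). No Dox was likewise closer to HA-H3.3 (0.607 at 6 h, 0.564 at 3 h) than to the anti-MacroH2A2 ES library (0.492). These values are a description across tiles that share their base composition. The intervals of the library labelled 3 h are 150 bp long, as in the other HA-Macro libraries, where those of HA-H3.3 and of anti-MacroH2A2 are 400 bp long.

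The sequences just upstream of the transcription start site (TSS) are shown for a few promoters, as examples chosen after their values were seen: E2f1 and Rad21 from the highest, Col3a1 and Vmn2r8 from the lowest, and Pou5f1 as a pluripotency gene that is at neither end. Each is the 200 bases before the TSS, 5′ to 3′ on the strand of the gene, from mm9, with every CpG dinucleotide in capitals.
E2f1 (chr2:154395629-154395828, minus strand): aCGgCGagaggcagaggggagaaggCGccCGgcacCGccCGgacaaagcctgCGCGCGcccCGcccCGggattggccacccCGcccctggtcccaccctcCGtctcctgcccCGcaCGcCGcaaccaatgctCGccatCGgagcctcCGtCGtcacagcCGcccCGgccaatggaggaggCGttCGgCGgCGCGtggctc
Rad21 (chr15:51823307-51823506, minus strand): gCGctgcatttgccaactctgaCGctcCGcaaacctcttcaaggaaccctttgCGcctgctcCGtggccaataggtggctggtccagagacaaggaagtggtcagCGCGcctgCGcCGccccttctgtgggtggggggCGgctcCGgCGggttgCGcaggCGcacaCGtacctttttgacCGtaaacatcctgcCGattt
Pou5f1 (chr17:35642782-35642981, plus strand): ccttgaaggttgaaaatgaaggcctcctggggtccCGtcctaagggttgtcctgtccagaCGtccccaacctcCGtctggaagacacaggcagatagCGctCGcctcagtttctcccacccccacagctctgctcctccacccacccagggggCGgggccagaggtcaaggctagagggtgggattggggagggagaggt
Col3a1 (chr1:45368183-45368382, plus strand): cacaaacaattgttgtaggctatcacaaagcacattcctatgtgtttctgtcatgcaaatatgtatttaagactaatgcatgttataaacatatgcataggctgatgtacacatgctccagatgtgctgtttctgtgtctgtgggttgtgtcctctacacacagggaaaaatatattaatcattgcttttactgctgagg
Vmn2r8 (chr5:109237774-109237973, minus strand): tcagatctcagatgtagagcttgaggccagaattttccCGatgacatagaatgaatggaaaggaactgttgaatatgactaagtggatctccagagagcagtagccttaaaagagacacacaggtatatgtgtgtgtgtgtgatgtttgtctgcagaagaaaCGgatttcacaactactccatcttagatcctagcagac

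E2f1, a transcription factor of the cell cycle, has 27 CpGs in this stretch and Rad21, a subunit of cohesin, 17. Pou5f1, the pluripotency factor Oct4, has 6. Col3a1, a fibrillar collagen of fibroblasts, has 0 and Vmn2r8, a pheromone receptor, 2. Over all 21418 protein-coding promoters the median is 7 CpGs, and 9.44% have none.

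By compartment, protein-coding promoters (within 600 bp of a TSS) were farthest above no Dox. They held 329034 midpoints in the library labelled 3 h and 146392 in no Dox, a ratio of 1.60 (1.59 to 1.61). Exons beyond the promoters followed at 1.48, promoters of other genes at 1.20 and introns at 1.15 (1.15 to 1.15). Intergenic DNA went down with distance, from 0.965 within 10 kb of any TSS to 0.896 at 10 to 50 kb and 0.780 beyond 50 kb, so that promoters stood 2.05 times above far intergenic DNA relative to no Dox. At 6 h the promoter ratio was 1.31 and that of far intergenic DNA 0.855, and at 12 h they were 1.10 and 0.871.

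Which compartments lie above background depends on the scaling. Scaled on the 10 kb windows with reads at or below the median in place of the total, every ratio is multiplied by 1.27, and scaled on the median tile by 1.16. Intergenic DNA at 10 to 50 kb then comes to 1.14 and 1.04, on the other side of 1, while DNA beyond 50 kb comes to 0.990 and 0.901. The order of the compartments is not touched by it, and only ratios between places are free of this choice.

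**Figure D2:**
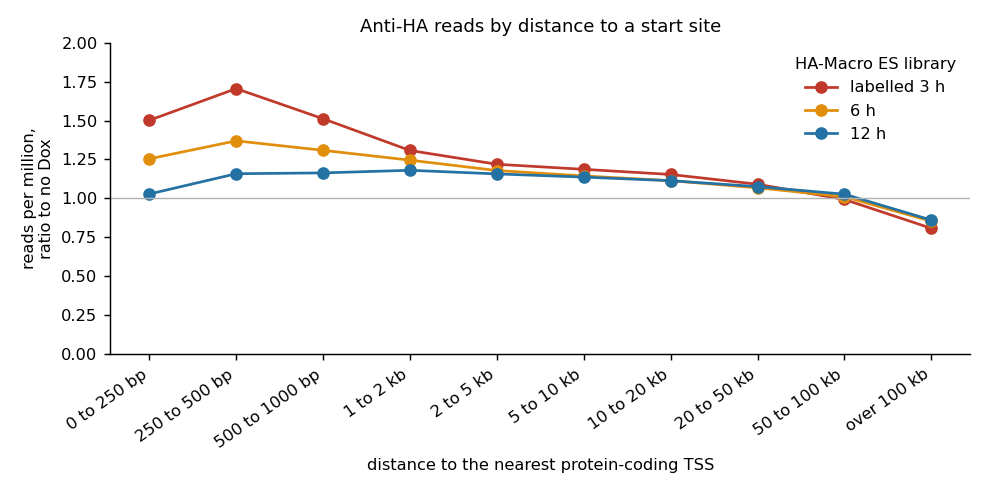
Ratio of RPM to no Dox (y axis) by distance to the nearest protein-coding TSS (x axis) for the library labelled 3 h and the libraries at 6 and 12 h. In the library labelled 3 h the ratio is highest at 250 to 500 bp (1.70) and lowest beyond 100 kb (0.808), and the range is narrower at 6 h and at 12 h.

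Ordered by distance to the nearest protein-coding TSS, the ratio was 1.50 within 250 bp, 1.70 (1.69 to 1.72) from 250 to 500 bp and 1.51 from 500 bp to 1 kb. It was 1.31 at 1 to 2 kb, 1.15 at 10 to 20 kb, 0.993 at 50 to 100 kb and 0.808 beyond 100 kb. The highest ratio was thus beside the TSS and not on it, and the decline went on beyond 50 kb. At 6 h the same distances gave 1.254 within 250 bp, 1.37 at 250 to 500 bp and 0.853 beyond 100 kb.

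Around the TSS itself, midpoints of the library labelled 3 h lay in a peak on each side of a dip. In the library labelled 3 h the average over 20746 protein-coding TSSs was lowest near the TSS 75 bp upstream and highest 175 bp downstream, where it stood 2.59 times above the mean 2 to 4 kb upstream. A smaller peak lay 375 bp upstream. No Dox had its highest value at the same place, but only 1.60 times above its upstream mean. The level within 600 bp over that at 2 to 4 kb upstream was 0.80 in log2 for the library labelled 3 h and 0.33 for no Dox, a difference of 0.46. That difference was 0.10 at 6 h and -0.15 at 12 h. Cells without Dox thus already had a peak at the TSS, and whether it comes from the antibody or from expression without Dox was not tested.

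Relative to no Dox, the ratio was highest 350 bp downstream of the TSS, at 1.94 (1.910 to 1.962), and was 1.30 within 100 bp of it. CpG-rich promoters reached 2.47 (2.43 to 2.52), 400 bp downstream, and the other promoters 1.37, 250 bp downstream. The 77 ribosomal protein genes reached 4.10 (3.38 to 5.02), 350 bp downstream, and the 1106 olfactory receptor genes 0.859 (0.796 to 0.927) at most. Ratios of protein-coding genes also stayed higher on the transcribed side. From 2 to 4 kb downstream the ratio was 1.36 and from 2 to 4 kb upstream 1.17 for all protein-coding genes, and 2.45 and 1.57 for ribosomal protein genes. For lincRNAs the order was the other way, with 1.39 (1.36 to 1.42) downstream and 1.45 (1.42 to 1.48) upstream. For pseudogenes the values were 0.992 and 0.989. Of the 1204 lincRNAs, 537 lie over 5 kb from any protein-coding TSS, and these were not profiled apart. The part of neighbouring genes in the lincRNA values was not tested.

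**Figure D3:**
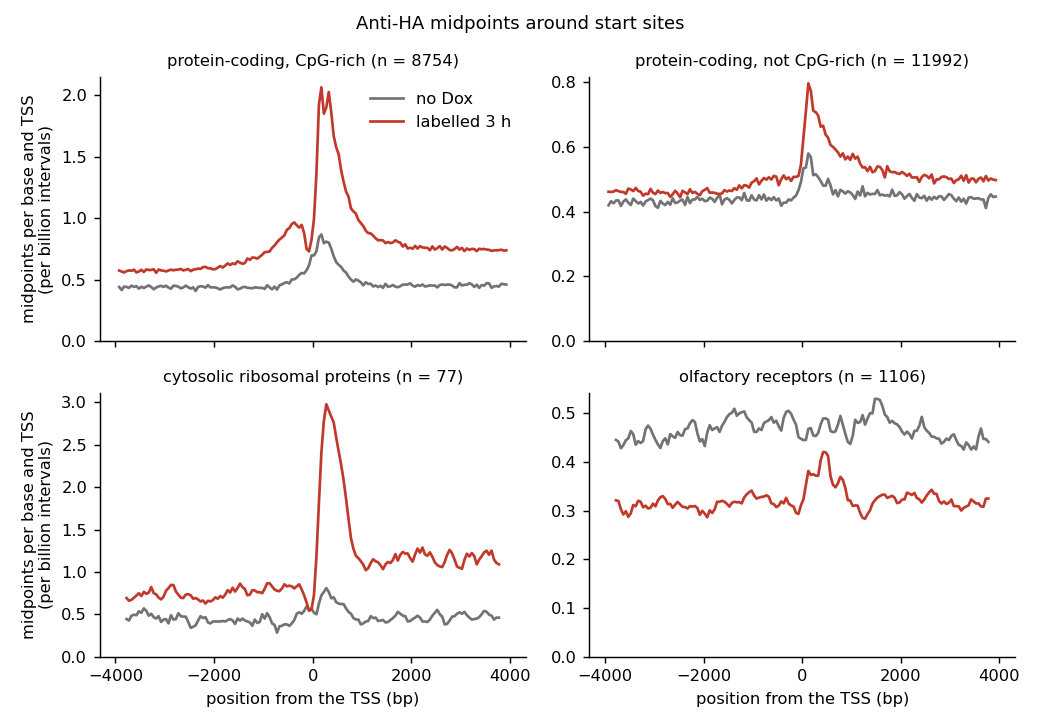
Midpoints per base and TSS, per 1000000000 intervals (y axis), by position from the TSS (x axis) in the library labelled 3 h (red) and no Dox (grey), for CpG-rich and other protein-coding promoters, ribosomal protein genes and olfactory receptors, the latter panels as running means over 4 bins of 50 bp. The bin 175 bp downstream of CpG-rich TSSs reaches 2.07 in the library labelled 3 h and 0.868 in no Dox, while the olfactory receptors lie lower in the library labelled 3 h than in no Dox.

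By gene type, the promoters of 20746 protein-coding genes outside the discarded tiles held 1.06 RPM each in the library labelled 3 h and 0.656 in no Dox, a ratio of 1.62 (1.61 to 1.63). Promoters of lincRNAs, long transcripts without a coding frame, came to 1.74 (1.69 to 1.78), and to 1.62 (1.55 to 1.68) for the 537 that lie over 5 kb from any protein-coding TSS. Processed transcripts had a ratio of 1.36, miRNAs 1.35, snoRNAs 1.33, pseudogenes 1.10 and snRNAs 1.05. The intervals of lincRNAs away from genes and of protein-coding promoters overlap, and both lie above those of pseudogenes and snRNAs. Away from protein-coding genes, snoRNAs came to 1.15 and miRNAs to 1.27. At 6 h the ratio of protein-coding promoters was 1.31, that of lincRNAs 1.39 and that of pseudogenes 1.07.

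CpG content divided the promoters further. A promoter was called CpG-rich where its CpG count was at least 0.6 of that expected from its base composition and its GC content at least 50%. The 8754 CpG-rich protein-coding promoters had a ratio of 2.01 (1.99 to 2.02) and the other 11992 a ratio of 1.24 (1.233 to 1.254). For lincRNAs the same classes gave 1.92 and 1.58. Divergent promoters, whose TSS has another on the opposite strand within 1 kb, had a ratio of 2.10 against 1.58 for those without a partner. Among CpG-rich promoters these were 2.18 (2.14 to 2.23) and 1.98 (1.961 to 1.997). At 6 h the order was the other way, with 1.39 for CpG-rich divergent promoters and 1.44 for CpG-rich promoters without a partner.

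GC content moved with the ratio everywhere in the genome. In 1 kb windows at least 2 kb from any TSS the ratio was 0.839 at 35 to 40% GC, 1.14 at 45 to 50%, 1.60 at 55 to 60% and 2.15 at 70 to 75%. At equal GC, promoters lay above such windows from 45% on, with 1.22 against 1.14 at 45 to 50%, 1.56 (1.53 to 1.58) against 1.33 (1.33 to 1.33) at 50 to 55% and 1.85 against 1.60 at 55 to 60%. At 40 to 45% they lay below, with 0.932 (0.911 to 0.955) against 0.993. At 6 h promoters had 1.41 and windows 1.49 at 55 to 60% GC, and at 70 to 75% 1.66 and 1.67. The ratio of such windows was then divided out at the mean GC of each compartment, 53.1% for promoters and 39.8% for far intergenic DNA. Promoters so stood 1.35 times above far intergenic DNA in place of 2.05. This corrects for mean GC only, and the part of GC content in the ratio was not tested further.

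The ratio also differed between classes of CpG density at equal GC. At 50 to 55% GC, 1477 promoters with CpG at or above 0.6 of expectation had a ratio of 1.87 (1.83 to 1.91) and 2749 below it 1.38 (1.35 to 1.40). At 55 to 60% GC the values were 1.98 and 1.64. The order was the opposite at 6 h, 1.23 against 1.34 at 50 to 55%, and at 12 h, 0.900 against 1.252.

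Of 19059 protein-coding promoters with at least 10 distinct intervals over both libraries, 6528 (34.3%) were at least 2-fold above no Dox and 1038 (5.45%) at least 2-fold below. Scaled on background windows these counts were 9573 and 481, and on the median tile 8302 and 678. Corrected for GC content they were 2607 and 1591, counted from the level of windows at equal GC away from TSSs and not from no Dox. The lower end of the counting interval was above 1 for 4343 (22.8%), and the upper end below 1 for 214 (1.12%). The median promoter held 15 distinct intervals in the library labelled 3 h and 7 in no Dox, so that single promoters are known only to within wide intervals. Without the chromosome 14 segment the count above was 6511.

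The 12 promoters with the highest lower ends were named by rule. The promoter of Actb, which encodes cytoplasmic β-actin, held 71 intervals in the library labelled 3 h and 6 in no Dox, a ratio of 8.41 (3.68 to 23.7). E2f1 held 43 and 2, as did Ezr, which encodes the membrane and actin linker ezrin, for a ratio of 15.3 (3.98 to 130). Rad21 held 38 and 2, a ratio of 13.5. Over the same no Dox counts, on which the choice rests, the 6 h ratios were 4.68 for Actb, 9.82 for E2f1, 8.77 for Ezr and 10.5 for Rad21. The sequences of E2f1 and Rad21 are printed above.

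The divergent promoters of Cct5, a chaperonin subunit, and Fam173b share the same fragments, and held 47 and 48 intervals in the library labelled 3 h against 3 each in no Dox. Slc39a7, a zinc transporter whose TSS lies beside Rxrb, held 67 and 6. Arhgdia held 64 and 6, and 1810008A18Rik 45 and 3. In Gramd4 the counts were 29 and 1. No midpoint was found in no Dox for 4833403I15Rik, with 26 in the library labelled 3 h, or for Pfas, an enzyme of purine synthesis, with 19. With no Dox set to a floor of 3 counts, the ratios would be 6.16 and 4.50. The lower end of the interval of 4833403I15Rik is 4.66.

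At the low end the counts are small. Col3a1 held 1 interval in the library labelled 3 h and 12 in no Dox, a ratio of 0.0592 (0.0014 to 0.400). Vmn2r8 and Cyp2c67, a cytochrome P450, held 1 and 11 each, 4930579C12Rik 1 and 13, AI481877 1 and 10, and Gm8701 2 and 13. Ifi47, an interferon-inducible GTPase, held 3 and 15, and Pla2g3, a secreted phospholipase, 6 and 21. Of these 8 promoters, 7 had a GC content under 45%, and Pla2g3, at 57.6%, was the exception. At 6 h Vmn2r8 had a ratio of 0.96 and Pla2g3 0.97.

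The lincRNA with the highest lower end was 4931440J10Rik, with 70 intervals in the library labelled 3 h and 5 in no Dox, a ratio of 9.95 (4.07 to 31.6). It starts beside Ints6, a subunit of the Integrator complex, and its 200 upstream bases (chr14:63379138-63379337, plus strand) hold 23 CpGs.
4931440J10Rik: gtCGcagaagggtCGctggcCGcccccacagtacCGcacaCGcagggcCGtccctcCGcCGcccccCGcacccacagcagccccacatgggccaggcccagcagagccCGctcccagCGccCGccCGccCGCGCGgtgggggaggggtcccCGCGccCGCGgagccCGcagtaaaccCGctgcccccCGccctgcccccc

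R74862, beside the tetraspanin gene Cd81, held 48 and 4. Gm14261 held 53 and 6, 1110018N20Rik 41 and 4 and 5430416N02Rik 30 and 2. The 5 lincRNA promoters were at ratios of 2.22 to 8.42 at 6 h, over the same no Dox counts.

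Among gene lists, splicing factors, pluripotency genes and ribosomal proteins lay highest. Of 81 ribosomal protein promoters on chromosomes 1 to 19, 77 lay outside the discarded tiles and passed the minimum, and 57 were at least 2-fold above no Dox and 0 below, with a pooled ratio of 2.71 (2.48 to 2.97) and a median of 2.98. The list stood at 1.47 at 6 h and at 0.973 at 12 h. Splicing factors came to 2.74 (2.43 to 3.10), with 36 of 46 above, and to 1.62 at 6 h and 1.15 at 12 h. Proteasome and translation initiation genes came to 2.36, with 58 of 94 above, and to 1.52 at 6 h and 1.12 at 12 h. Mitochondrial ribosomal proteins came to 2.16, with 42 of 76 above, and the respiratory chain to 2.16, with 38 of 77 above and 1, Cox8c, below. At 6 h these mitochondrial lists stood at 1.36 and 1.37, and at 12 h at 1.03 and 0.978. The share above over all protein-coding promoters was 34.3% and their median 1.58. Over CpG-rich protein-coding promoters 49.6% were above, at a ratio of 2.01. CpG-rich were 84.4% of the ribosomal protein promoters, 85.1% of the splicing factors and 81.9% of the proteasome and translation initiation genes. They were 61.8% of the mitochondrial ribosomal proteins and 67.9% of the respiratory chain.

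In no Dox the promoters of these 5 lists held 0.630 to 0.723 RPM each, and all protein-coding promoters 0.656. Ribosomal protein promoters held 0.693 RPM each in no Dox and 1.88 in the library labelled 3 h. Olfactory receptor promoters held 0.568 and 0.417. The ratio between these lists was thus 1.22 without Dox and 4.50 in the library labelled 3 h, and 2.22 at 6 h and 1.38 at 12 h. In the HA-H3.3 libraries, where H3.3 is the replacement histone of active promoters, it was 3.37 at 3 h and 6.76 at 6 h, and in the anti-MacroH2A2 ES library 2.01.

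Of the ribosomal protein promoters with the most intervals, Rpl23 held 52 in the library labelled 3 h and 10 in no Dox, a ratio of 3.69 (1.86 to 8.15). Rpl19 held 48 and 14. At 6 h Rpl23 stood at 1.40 and Rpl19 at 0.95. Among mitochondrial genes, Mrps7 held 52 and 6, Mrps34 56 and 9 and Ndufa13, a subunit of respiratory complex I, 74 and 8. Mrpl43 and Mrpl48 held 49 and 11 each, and Atp5j, a subunit of the ATP synthase, 47 and 11. Cox5a, a subunit of cytochrome c oxidase, stood lower, with 50 and 19 and a ratio of 1.87, and Ndufa6, with 37 and 19, at 1.38 (0.78 to 2.55), and at 0.55 at 6 h. Among splicing factors, Srsf2 held 61 and 14, Hnrnpab 58 and 8, Hnrnpul1 50 and 6 and Hnrnpa0 48 and 14. The splicing factor Hnrnpab thus stood at 5.15 (2.45 to 12.5), and at 3.16 at 6 h.

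Pluripotency genes came to 2.74 (2.37 to 3.17), with 27 of 33 promoters at least 2-fold above no Dox and a median of 3.10. All protein-coding promoters had 34.3% above and a median of 1.58. Fgf4, an autocrine growth factor of ES cells, held 72 intervals in the library labelled 3 h and 17 in no Dox, a ratio of 3.01 (1.76 to 5.45). Pou5f1 held 48 and 11, a ratio of 3.10 (1.59 to 6.62), Klf2 52 and 7 and Klf5 42 and 14. Named after their values were seen, Sox2 held 33 and 5, Nanog 20 and 4 and Zfp42 13 and 1. The single promoter at least 2-fold below was that of Dppa5a, with 7 and 10, whose interval spans 1. At 6 h the list stood at 1.75, with Fgf4 at 1.61 and Pou5f1 at 1.21.

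Immediate early genes, which answer serum and stress within minutes, came to 2.11, with 10 of 23 above, among them Egr3 of the chromosome 14 segment, with 16 and 1. Dusp1, a phosphatase of MAP kinases, held 49 and 6 and Srf, the serum response factor, 45 and 6, while Junb held 39 and 16. Histone variants and their chaperones came to 2.14, with 11 of 21 above. Daxx, an H3.3 chaperone, held 37 and 7, and Hira, another, 45 and 13. H2afy2 itself held 10 and 7. Replication-dependent histone genes, which are transcribed in S phase, came to 1.95 (1.79 to 2.13), with 30 of 67 above and 0 below, but to 1.24 at 6 h and 0.78 at 12 h. Over all protein-coding promoters 34.3% were above and 5.45% below, and over the CpG-rich ones 49.6% were above, at a ratio of 2.01. CpG-rich were 95.7% of the immediate early promoters, 90.5% of those of histone variants and chaperones and 67.2% of those of replication-dependent histones. The sequences of histone genes are close copies of each other and reads with several places were kept at 1 of them, so that values of single histone genes are uncertain.

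Zinc finger genes of the Zfp series, many of them repressors of transposons, came to 1.73, with 125 of 330 above and 4 (Zfp113, Zfp541, Zfp846 and Zfp963) below. All protein-coding promoters came to 1.62, with 34.3% above and 5.45% below. Imprinted genes came to 1.61, with 10 of 33 above and Igf2 below. Developmental transcription factors, silent or poised in ES cells for the most part, came to 1.35 (1.23 to 1.49), with 19 of 81 above and 0 below. Hox genes came to 1.26 (1.09 to 1.46), with 6 of 38 above (Hoxa4, Hoxa6, Hoxa7, Hoxb2, Hoxb9 and Hoxd11) and 4 below (Hoxa11, Hoxb4, Hoxc4 and Hoxc10). Of these promoters 72.6% of the developmental factors and 46.2% of the Hox genes were CpG-rich, against a ratio of 2.01 over all CpG-rich promoters. At 6 h they had 1.36 and 1.38, close to the 1.31 of all promoters. Corrected for GC content, developmental transcription factors in the library labelled 3 h came to 0.827 (0.753 to 0.909). Here 1 is the level of windows of similar GC away from TSSs and not that of no Dox, over which the list stood at 1.35. The interval leaves out the error of the correction. The same correction brought ribosomal protein promoters from 2.71 to 1.77 (1.61 to 1.93), splicing factors from 2.74 to 1.70 (1.51 to 1.92) and pluripotency genes from 2.74 to 1.79 (1.55 to 2.07), all still above 1. Olfactory receptors came to 0.823 and vomeronasal receptors to 0.820.

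Markers of the feeder fibroblasts came to 1.14 (0.953 to 1.36), with 6 of 25 above and 3 (Col3a1, Thy1 and Acta2) below, and at 6 h to 1.03. The shares over all protein-coding promoters were 34.3% above and 5.45% below. In the library labelled 3 h, Fn1 held 29 intervals against 10 in no Dox and Twist2 26 against 7. Clustered protocadherins came to 1.22 (0.955 to 1.56), with 3 of 17 above (Pcdhb3, Pcdhb4 and Pcdhb17) and Pcdhb19 below. Keratins came to 1.02 (0.934 to 1.12).

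Receptor families of the nose lay lowest. Olfactory receptors came to 0.734 (0.710 to 0.758), with 39 of 870 promoters at least 2-fold above no Dox and 227 below. Vomeronasal receptors came to 0.664 (0.624 to 0.707), with 75 of 233 below and 3 (Vmn1r90, Vmn1r158 and Vmn1r194) above. Over all protein-coding promoters 34.3% were above and 5.45% below. Olfr1136 held 13 and 23, while Olfr1344, in a GC-richer promoter, held 34 and 19. Cytochrome P450, Ugt and Serpin clusters, expressed in liver, came to 0.903 (0.822 to 0.993). Under scaling on background windows olfactory receptors stood at 0.93 and vomeronasal receptors at 0.84, still below 1, and the P450, Ugt and Serpin clusters at 1.15, above it. At 6 h the receptors had 0.81 and 0.70, and reads that fit several of these close paralogs were placed at random.

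**Figure D4:**
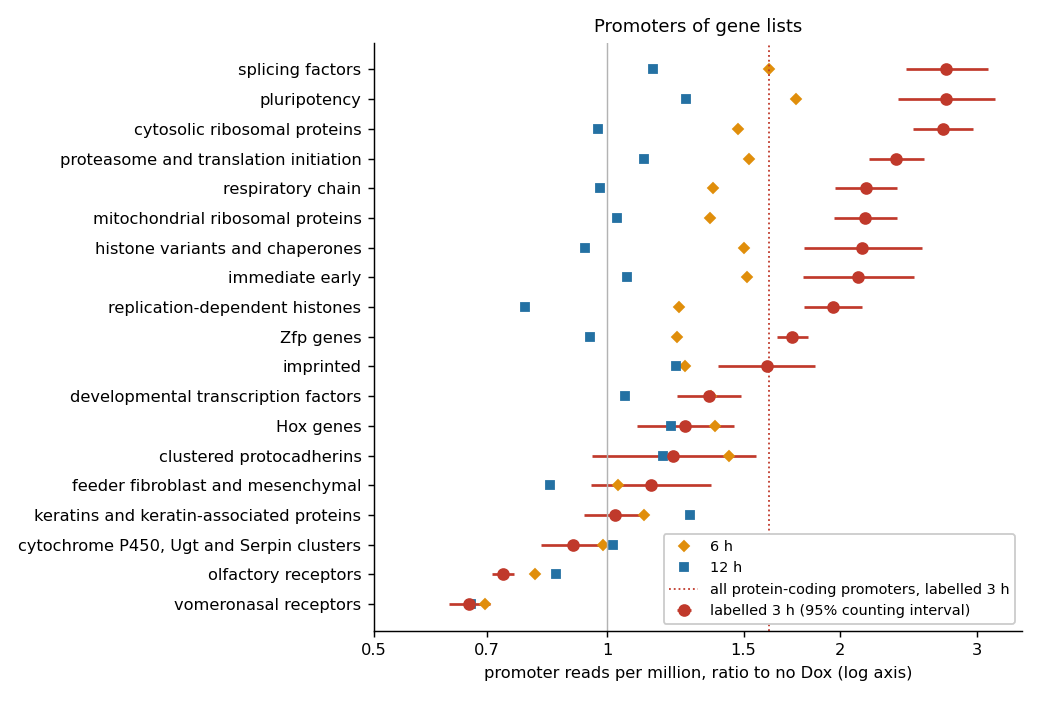
Pooled promoter ratio to no Dox (x axis, log scale) of 19 gene lists (y axis) in the library labelled 3 h with 95% counting intervals, and at 6 and 12 h; the dotted line is the ratio of all protein-coding promoters labelled 3 h (1.62). Splicing factors, pluripotency and ribosomal protein genes lie highest, at 2.71 to 2.74, and vomeronasal receptors lowest, at 0.66.

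The loci of the construct can be read only in their native part. Gt(ROSA)26Sor, the transcript of the locus that holds the transactivator in both libraries, held 44 intervals labelled 3 h and 8 in no Dox, a ratio of 3.91 (1.82 to 9.61), and 2.02 at 6 h. Col1a1 held 11 and 8, a ratio of 0.98 (0.36 to 2.80).

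Gene bodies, from 1 kb after the TSS to the gene end in genes of at least 5 kb, lay less far above no Dox than promoters did. Of 15351 protein-coding bodies, 5778 (37.6%) were at least 1.5-fold above no Dox and 519 (3.38%) at least 1.5-fold below. The lower end of the interval was above 1 for 8082 (52.6%), and the upper end below 1 for 2000 (13%). Bodies pooled came to 1.18, lincRNA bodies to 1.08 and pseudogene bodies to 0.924. Scaled on background windows 8842 were above and 76 below, and on the median tile 7728 and 170. At 6 h 2106 bodies were above and 450 below.

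Short genes stood above long ones. The pooled body ratio was 1.48 for genes of 5 to 10 kb, 1.39 at 20 to 50 kb, 1.21 at 100 to 200 kb and 0.866 for the 188 genes of 500 kb and over. Exons exceeded introns at equal GC content in 200 bp windows, with 1.44 (1.43 to 1.46) against 1.2535 (1.2501 to 1.2569) at 45 to 50%. At 55 to 60% the values were 1.70 and 1.48. These windows were not matched for distance to the TSS. At 600 bp to 1 kb from the TSS both exons and introns had 1.64, at 51.7% and 47.3% GC. Farther away exons exceeded introns in each distance class, without matching for GC. Within introns the ratio went from 1.64 at 600 bp to 1 kb from the TSS to 1.33 at 5 to 10 kb and 0.908 beyond 100 kb.

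Genes with a CpG-rich promoter had a median body ratio of 1.55 and the others 1.08. The median GC content of their bodies was 44.4% and 45.3%, and its part in the ratio was not tested. Where the promoter was at least 2-fold above no Dox, 59.8% of bodies were at least 1.5-fold above, and 28.0% elsewhere. Over 14358 genes the log2 ratios of body and promoter had a correlation of 0.45, a description across genes of the same pair of libraries.

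By list, pluripotency bodies came to 1.84 (1.784 to 1.898), with 24 of 25 at least 1.5-fold above, ribosomal protein bodies to 2.21, with 17 of 18, and splicing factor bodies to 1.71, with 37 of 42. Bodies of histone variants and chaperones came to 1.79, with 16 of 19. Vomeronasal receptor bodies came to 0.702, with 59 of 123 at least 1.5-fold below and 0 above. Over all protein-coding bodies 37.6% were above and 3.38% below. Feeder and mesenchymal bodies came to 0.936. At 6 h pluripotency bodies stood at 1.11 and splicing factor bodies at 0.92.

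The 4 bodies with the highest lower ends lie in the chromosome 14 segment described above. Slc39a14, a zinc and iron transporter, held 659 midpoints in the library labelled 3 h and 108 in no Dox, a ratio of 4.33 (3.53 to 5.36). Fgf17 had 5.30, Fam160b2 4.25 and Epb4.9 3.73. At 6 h, where the segment lies low as it does in no Dox, Slc39a14 had 1.27, Fam160b2 1.52, Epb4.9 1.67 and Fgf17 2.20. The level of the whole segment differed between the libraries, and its part in these values was not tested.

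By a rule added after the data were seen, the same ranking was made outside the segment. Il17rd, an inhibitor of FGF signalling, held 1342 midpoints in the library labelled 3 h and 302 in no Dox, a ratio of 3.16 (2.78 to 3.59) over 68.3 kb. Zcchc10 had 4.42 (2.83 to 7.19), Atp6v0c, a subunit of the vacuolar proton pump, 4.36 (2.74 to 7.29), and Traf4, a signalling adaptor, 3.84 (2.69 to 5.61). Fasn, the fatty acid synthase, held 596 and 130, a ratio of 3.26. Epha2, an ephrin receptor, held 706 and 160, and Setd1b, an H3K4 methyltransferase, 602 and 135. Wdr38 had a ratio of 3.90. The 6 h ratios of these 8 genes, over the same no Dox counts, were 1.35 to 2.24.

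The lowest bodies were those of Vmn2r70, with 24 and 56 and a ratio of 0.30 (0.18 to 0.50), Gm8005 at 0.26, Ugt2b36, with 86 and 134 at 0.46 (0.34 to 0.60), A530099J19Rik at 0.32, Serpina1b at 0.34, Serpinb9g at 0.40, Gm13941 at 0.45 and Pi15 at 0.51. Several belong to the receptor, Ugt and Serpin clusters. Their 6 h ratios were 0.43 to 0.80.

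Distal DNA, in 1 kb windows outside genes and at least 10 kb from any TSS, lay below no Dox as a whole, at 0.825 (0.824 to 0.826). The ratio was 0.924 at 10 to 20 kb from a TSS, 0.821 at 50 to 100 kb and 0.706 beyond 500 kb. Of 539671 windows that passed the minimum, 49988 (9.26%) were at least 2-fold above no Dox and 112223 (20.8%) at least 2-fold below. Intervals lay above 1 for 7604 (1.41%) and below 1 for 21806 (4.04%). Scaled on background windows, 99618 were above and 56107 below, and on the median tile 72366 and 76375, so that the larger side depends on the scaling.

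Distal windows were ranked by the interval of the ratio of the library labelled 3 h over no Dox, so that their levels in both are a description. Window 1, chr17:36621001-36622000, at 15804 bp from the nearest TSS, with H2-M10.4 as its nearest protein-coding gene, held 97 midpoints in the library labelled 3 h, 1 in no Dox, 7 at 6 h and 5 at 12 h. With HA-H3.3 or anti-MacroH2A2 it held 54 to 61, and in the HA-Macro MEF libraries 1 to 4. Scaled to depth, it held 6.05 RPM in the library labelled 3 h and 3.87 to 8.60 with HA-H3.3 or anti-MacroH2A2. In no Dox it held 0.0879 RPM, at 6 h 0.431, at 12 h 0.291 and in the HA-Macro MEF libraries 0.0954 to 0.294. Windows 4 to 6, with Ddx18, Eif4ebp1 and Setd4 as their nearest genes, held 24, 23 and 22 midpoints and 0 in no Dox. With no Dox set to a floor of 3 counts, their ratios would be 5.68, 5.45 and 5.21. The lower ends of their intervals are 4.28, 4.08 and 3.89.

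The part of windows 1, 4, 5 and 6 with the most midpoints is given for comparison with the promoters above. Each is 120 bases of the plus strand of mm9 with CpG in capitals.
window 1 (chr17:36621758-36621877): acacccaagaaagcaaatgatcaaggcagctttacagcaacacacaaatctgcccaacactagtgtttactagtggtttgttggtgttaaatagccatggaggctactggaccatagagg
window 4 (chr1:123449006-123449125): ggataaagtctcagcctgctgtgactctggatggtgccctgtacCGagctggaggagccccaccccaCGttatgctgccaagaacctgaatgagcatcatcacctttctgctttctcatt
window 5 (chr8:28387621-28387740): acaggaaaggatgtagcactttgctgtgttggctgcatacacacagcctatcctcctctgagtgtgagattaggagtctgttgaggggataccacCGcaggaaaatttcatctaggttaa
window 6 (chr16:93467336-93467455): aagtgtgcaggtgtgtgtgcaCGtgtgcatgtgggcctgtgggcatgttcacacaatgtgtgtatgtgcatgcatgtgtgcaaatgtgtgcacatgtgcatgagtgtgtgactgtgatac

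These stretches hold 0, 2, 1 and 1 CpGs. Window 1 had 41 of its midpoints in the 120 bases shown, and windows 4, 5 and 6 had 7, 6 and 8. The adjoining windows 2 and 3, near Armc4 on chromosome 18, held 53 and 78 in the library labelled 3 h against 1 and 5 in no Dox, and 6 h ratios of 2.81 and 0.98. Together they held 8.18 RPM in the library labelled 3 h, 0.527 to 0.954 in the other HA-Macro libraries and 1.27 to 3.26 with HA-H3.3 or anti-MacroH2A2.

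Over 23730 tiles of 100 kb the log2 ratio had a median of -0.21 and an SD of 0.41, where counting error alone gives an SD of 0.09 at a median of 549 and 465 midpoints. The spread between replicate libraries is not known, with 1 library each. At least 1.5-fold above no Dox were 2105 tiles (8.87%), and at least 1.5-fold below 1423 (6%). Scaled on background windows the counts were 5315 and 2, and on the median tile 3950 and 35, so that the count of tiles at least 1.5-fold below depends on the scaling. At 6 h 1246 tiles were above and 1265 below.

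Gene content ordered the tiles. Without a protein-coding TSS the median log2 ratio was -0.35, with 1 TSS -0.01, with 2 to 4 TSSs 0.24, with 5 to 9 TSSs 0.50 and with at least 10 TSSs 0.76. GC content, which moves with it, had a correlation of 0.69 with the log2 ratio and the number of TSSs one of 0.46, and 0.25 after the median at equal GC was taken off. At 44 to 46% GC, tiles with 0, 1 and at least 2 TSSs had medians of -0.05, 0.13 and 0.35, and at 36 to 38% GC of -0.51, -0.46 and -0.47. At 36 to 38% GC the medians thus differed little with the number of TSSs, while the pooled ratios were 0.718, 0.778 and 0.769. At 38 to 40% GC the pooled ratios were 0.787, 0.904 and 0.917.

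**Figure D5:**
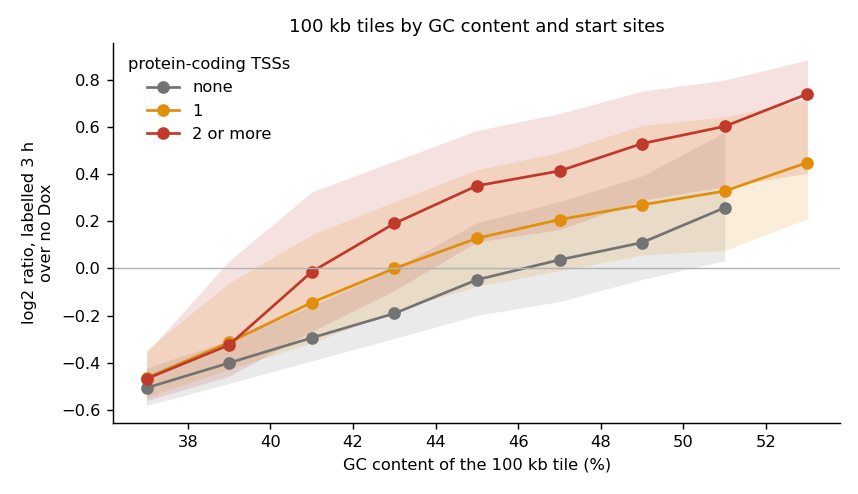
Median log2 ratio of the library labelled 3 h over no Dox (y axis) of 100 kb tiles by GC content (x axis), for tiles with 0, 1 and at least 2 protein-coding TSSs, with the range between quartiles shaded. The lines run together at 36 to 38% GC (-0.51 to -0.46) and apart at 44 to 46% (-0.05, 0.13 and 0.35).

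The 5 highest tiles, at 2.59 to 3.36, all lie in the chromosome 14 segment, and had 0.95 to 1.51 at 6 h. Outside it, by the added rule, the highest was chr7:140200001-140300000, within the annotated spans of Fgfr2 and Ctbp2, with 1761 midpoints in the library labelled 3 h and 486 in no Dox, a ratio of 2.57 (2.33 to 2.85). Next came chr11:120400001-120500000, which holds Arhgdia, P4hb, Sirt7 and 7 other TSSs, at 2.56, then a tile of Myst4, a histone acetyltransferase, at 2.41, one of Daxx, Tapbp and Rps18 on chromosome 17 at 2.39, and one of Slc19a1 and Col18a1 on chromosome 10 at 2.38. Their 6 h ratios were 1.26 to 1.61. The 5 lowest tiles, at 0.52 to 0.55, held no protein-coding TSS and 35.4 to 36.7% GC.

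Tiles above no Dox formed 1292 runs, of which 836 were single tiles. The longest was chr9:20700001-21900000, 1.2 Mb with 46 protein-coding TSSs, among them Dnmt1, Keap1, Icam1 and Eif3g, at 1.85 (1.799 to 1.902). A run of 0.9 Mb at chr2:29500001-30400000 held 30 TSSs at 1.84 and one of 0.8 Mb at chr10:127500001-128300000 39 TSSs at 1.65. Tiles below formed 1035 runs, the longest chr1:143400001-144500000, 1.1 Mb without a protein-coding TSS, at 0.617 (0.592 to 0.642). The next was 1.0 Mb at chr6:44800001-45800000 within Cntnap2, a long neuronal adhesion gene, at 0.640. By chromosome the ratio ranged from 0.913 on chromosome 3, with 6.62 protein-coding genes per Mb, to 1.13 on chromosome 11, with 13.6 genes per Mb, discarded tiles included. Chromosome 7, also with 13.6 genes per Mb, had 1.04, and chromosomes 12 and 18, with 5.81 and 5.70, had 0.974 and 0.976.

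Set beside the other ES libraries, the library labelled 3 h had a promoter level between those of HA-Macro at 6 h and of HA-H3.3. Promoters stood at 2.82 times the density of far intergenic DNA in it, at 1.38 without Dox, 2.11 at 6 h and 1.74 at 12 h, and at 3.85 and 7.26 in HA-H3.3 at 3 and 6 h and 2.72 in the anti-MacroH2A2 ES library. Exons stood at 2.49 times far intergenic DNA in the library labelled 3 h, at 2.27 in HA-H3.3 at 3 h and 3.28 at 6 h. The contrast of the TSS over its upstream DNA was 0.80 in log2 in the library labelled 3 h, 1.27 and 1.56 in HA-H3.3, 0.99 in the anti-MacroH2A2 ES library and 0.43 in HA-Macro at 6 h. Developmental transcription factor promoters held 0.965 RPM in the library labelled 3 h, 0.972 at 6 h and 1.54 and 1.86 in HA-H3.3 and 1.67 in the anti-MacroH2A2 ES library. The files of HA-H3.3 and of anti-MacroH2A2 hold longer intervals, so that these values stand side by side without a test.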

How the data were processed

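Anti-HA ChIP-Seq reads were placed on mm9 by the authors (Bowtie 1.0, no more than 1 mismatch), keeping 1 random location for reads with several, and extended to 150 bp. The deposited values are intervals, so that coverage and counts were computed here: distinct intervals were counted by midpoint on chromosomes 1 to 19, as RPM, outside the 1% of 100 kb tiles with the most no Dox reads. Promoters reach 600 bp from the TSS. At least 10 distinct intervals over both libraries were required. Python 3.11.15, NumPy 2.4.6, SciPy 1.17.1, pandas 2.3.3, numba 0.67.0 and matplotlib 3.10.9 were used, and the scripts were tested on simulated data. PCR reads without molecular identifiers are not independent molecules, so intervals cover counting error only. Named features were the 12 promoters and 8 bodies with the highest lower ends, the 8 of each with the lowest upper ends, 5 lincRNA promoters, 6 distal windows, the 5 highest and 5 lowest tiles, up to 4 list members with the most intervals, and the construct's loci. Members and lists were chosen with earlier results of these data known. Alternatives covered scaling, discarded tiles, repeats, GC content, window sizes, minimum, thresholds and the 6 and 12 h libraries. Some features that the rule names are not reported here.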

Additional observations from a re-analysis of the deposited data

Results flagged for a closer look

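Chromosome Y, which lies outside the comparisons of promoters, bodies, distal windows and tiles and served above only to compare the libraries, held 0.1115% of the distinct intervals in the library labelled 3 h (18492 midpoints) and 0.0244% in no Dox (2881 midpoints), a ratio of 4.58 relative to all distinct intervals. The share at 6 h was 0.0219% and at 12 h 0.0228%. What sets the library labelled 3 h apart was not tested.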

How the results depend on the processing

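No paired analysis was possible because each condition is 1 library. Of the values under alternatives, 119 moved by less than their limits, 70 moved further and 6 reversed. Some of them could not move. Ratios between places do not depend on the scaling, and the pooled ratio of tiles without a TSS does not depend on the fold threshold. The tally also includes the 6 and 12 h libraries, which are other samples, so it is no measure of robustness. Promoters over far intergenic DNA (2.05) came to 2.06 with every interval counted, 1.96 with no tiles discarded, 2.03 with the top 2% discarded, 1.53 at 6 h, 1.26 at 12 h, 1.35 corrected for GC content, and 1.96 and 2.00 with promoters of 300 and 1000 bp each side. The difference in TSS contrast (0.46) came to 0.43 with no tiles discarded, 0.10 at 6 h, -0.15 at 12 h, and 0.39 and 0.44 with 300 and 1000 bp. Promoters above (6528, with 1038 below) numbered 4019 at 6 h (968 below), 2429 at 12 h (1705 below), 2607 corrected for GC content (1591 below), 4343 by the interval, 10168 at 1.5-fold and 2578 at 3-fold. Bodies above (5778) numbered 8842 under background scaling, 2106 at 6 h, 1969 at 12 h and 1852 at 2-fold. Distal windows above (49988, 9.26% of those tested) numbered 99618 (18.5%) under background scaling, 87029 (14.7%) at 6 h and 98984 (15.6%) at 12 h. With a minimum of 20 they numbered 5372 of 29964 (17.9%), from 50 kb 23040 of 308465 (7.47%) and at 3-fold 20165 (3.74%). Tiles above (2105, 8.87% of those tested) numbered 5315 under background scaling, 3950 on the median tile, 1246 at 6 h and 1355 at 12 h. In tiles of 50 kb they numbered 4767 of 47388 (10.1%) and in tiles of 1 Mb 56 of 2354 (2.38%). At the lower of both other thresholds they numbered 4488 (8890 below, where the main count has 1423), and at 2-fold 144 (0 below). Corrected for GC content, 1709 tiles were above and 104 below the median of tiles at equal GC. For promoters corrected for GC content, above and below are likewise relative to windows of similar GC and not to no Dox. The ratio of chromosome Y (4.58) came to 4.28 with every interval counted, 0.899 at 6 h and 0.935 at 12 h. Ribosomal protein promoters came to 0.973 at 12 h, developmental transcription factors to 0.827 corrected for GC content, which brought ribosomal protein, splicing and pluripotency promoters to 1.77, 1.70 and 1.79, and tiles without a TSS (0.860) to 1.09 under background scaling. The causes were not tested. Without the chromosome 14 segment, an alternative chosen after seeing the data, the counts were 6511 promoters, 5759 bodies, 49905 distal windows and 2093 tiles. Counting by overlap was not run for compartments, TSS profiles and label checks, nor the correction for GC content for TSS profiles. Depth limits single promoters, at a median of 15 and 7 intervals.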
